A study of Sus scrofa and Rattus norvegicus with 8 samples.

Results

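Transcripts of 8 sterol-regulated genes were examined in pig adipose tissue: SREBF2 and INSIG1, which control the response to sterols, and HMGCS1, IDI1, FDFT1, SQLE, LSS and DHCR7, which encode enzymes of cholesterol synthesis. The genes were chosen by name, from their place in the pathway and its control, and each of the 8 had 1 Ensembl ID among the 25880 gene IDs of the pig table. The study profiled white adipose tissue by RNA-seq in pig and rat as part of a body-wide atlas of pig transcription. The 6 pig libraries, numbered here as replicates 1 to 6, came from the upper layer of backfat, a subcutaneous depot, of 2-year-old adult female pigs of the Bama breed. By the methods of the study the animals had free access to feed and water and were fasted overnight before slaughter. All 6 pigs belonged to 1 group with no treatment, and bulk tissue was used, so fewer cells of a type and less RNA per cell cannot be told apart. The rat samples, 2 pools of inguinal fat from adult females of the SD strain, carry gene IDs that could not be named here and were not used.

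Cholesterol is built from acetyl units through mevalonate, isoprenoids and squalene, and the ring of squalene epoxide is then closed and trimmed by a further series of enzymes. SREBF2 encodes the membrane-bound transcription factor SREBP-2, which is cut free in the Golgi when sterols are scarce and then switches on the genes of this pathway and of lipoprotein uptake by binding sterol regulatory elements. INSIG1 holds the precursor in the endoplasmic reticulum when sterols are plentiful. Adipose tissue stores much of the free cholesterol of the body, most of it taken up from lipoproteins, and its fat cells make comparatively little.

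The sterol regulatory element was looked for by its letters, since it is the feature through which SREBP-2 is known to act on these genes. In the 300 bases before the RefSeq transcription start, on either strand, the form TCACNCCAC occurred in 3 of the 7 genes that matched by symbol, HMGCS1, SQLE and SREBF2 itself, and in 0.915% of 20656 gene starts on Sscrofa11.1. It occurred in 0 of the 14 other enzymes of the pathway. The 200 bases before the start of HMGCS1 and SREBF2 are shown 5′ to 3′ on the minus strand, chr16:27957262-27957461 and chr5:6784725-6784924, with the TCACNCCAC match and each CCAAT box, here read as ATTGG from the opposite strand, in capitals.

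HMGCS1: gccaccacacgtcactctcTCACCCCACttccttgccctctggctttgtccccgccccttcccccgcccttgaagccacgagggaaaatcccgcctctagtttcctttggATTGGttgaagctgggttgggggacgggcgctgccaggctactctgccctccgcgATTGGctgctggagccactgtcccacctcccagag

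SREBF2: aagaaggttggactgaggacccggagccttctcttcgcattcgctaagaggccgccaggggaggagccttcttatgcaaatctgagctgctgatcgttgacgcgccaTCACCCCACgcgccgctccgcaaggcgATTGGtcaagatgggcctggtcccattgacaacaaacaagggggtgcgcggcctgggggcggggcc

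In HMGCS1 the first base of the sterol element lay 181 bases before the start, in SREBF2 93 bases and in SQLE 177 bases. Each element was followed downstream by a CCAAT box, the letters bound by NF-Y. CCAAT was present in all 7 windows and in 11 of the 14 other enzymes, against 35.9% of all gene starts. The GC box GGGCGG, the letters bound by Sp1, was likewise in all 7 and in 12 of 14, against 46.3%. The E-box CACGTG was in 1 of 7, INSIG1, and in 2 of 14, against 7.09% of all starts. No match to one motif overlapped a match to another motif. These are matches of letters, and binding was not measured.

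Values are TPM, transcript abundances on a fixed total per library, which are corrected for length, so levels of different genes can be compared within a library. Replicates 4 and 5 stood apart before any gene was considered: named nuclear genes held 3.34% and 4.73% of their TPM, against 24.1 to 26.3% in the other 4 libraries. On the log2(TPM + 1) scale the median deviation of all genes from their own median over the pigs was therefore -2.14 in replicate 4 and -1.87 in replicate 5. Each library was also rescaled to 1000000 over its 14844 named nuclear genes, termed rescaled TPM. The medians were then -0.31 and -0.36, over the 12130 genes with a mean of at least 1 on this scale. The tissue label was checked against adipocyte markers, which summed to 18206 to 35019 rescaled TPM over the 7 of 8 with a value. FABP4 was the largest part, at 10370 to 28926. Of the 7 markers, 1 was highest in replicate 5, FABP4. The 3 lowest there were PLIN1, PLIN4 and LIPE, at 1247, 573 and 423. Depth is unknown, since TPM keep no read number, and precision comes only from the spread between the 6 libraries.

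All 8 genes were transcribed in every pig, over a range from FDFT1 at 207 ± 26.4 rescaled TPM (SD, n = 6) to DHCR7 at 9.06 ± 3.01 rescaled TPM (SD, n = 6). As deposited, the corresponding levels were 38.0 ± 24.4 and 1.81 ± 1.26 TPM (SD, n = 6). As deposited, all 8 were lowest in replicate 4, as were 83.7% of 12130 named genes, so that count says nothing particular about the pathway. The summed level of the 8 genes was 456, 458, 577, 497, 772 and 479 rescaled TPM in replicates 1 to 6, with replicate 5 the highest.

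**Figure D1:**
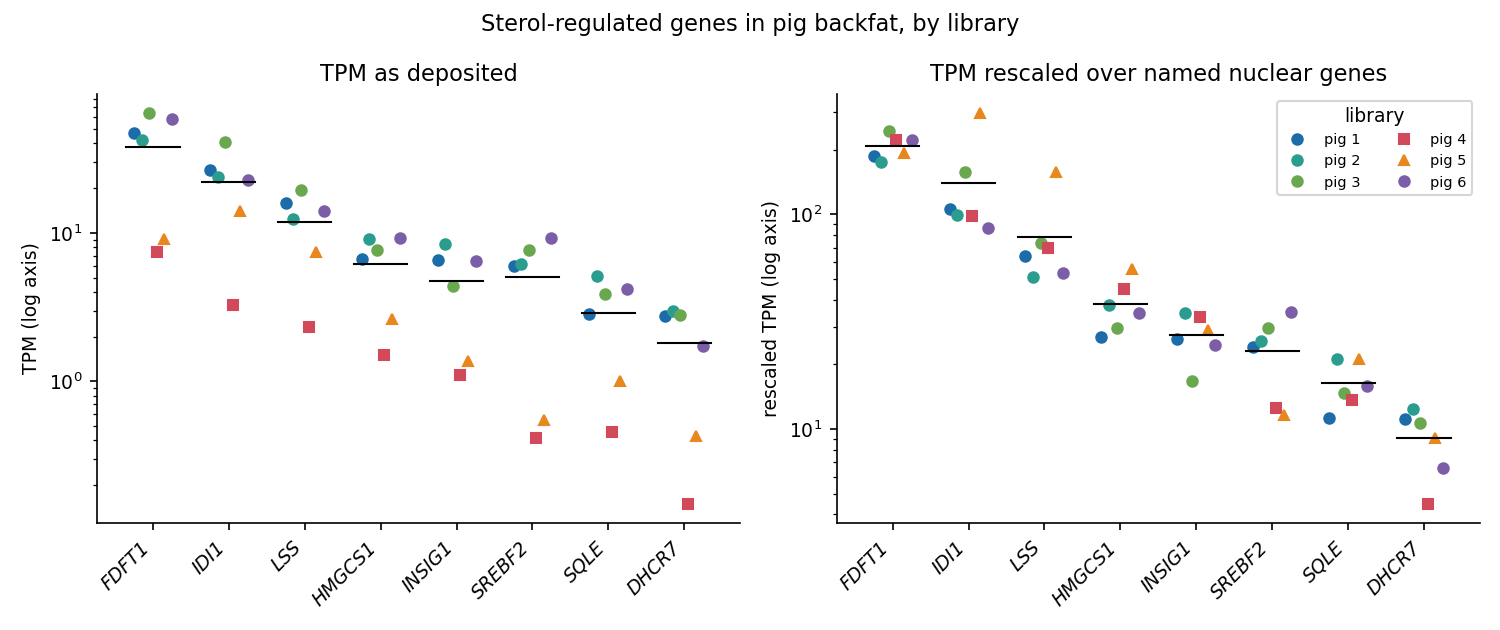
Level of each gene in each library (pig 1 to 6 are replicates 1 to 6), as deposited TPM on the left and as rescaled TPM on the right, both on log axes, with a black line at the mean. As deposited, squares (replicate 4) and triangles (replicate 5) lie under the other points for every gene, while after rescaling both lie among them for FDFT1 and INSIG1, below them for SREBF2 and above them for HMGCS1, and replicate 5 lies far above them for IDI1 and LSS.

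Of the regulators, SREBF2 (ENSSSCG00000026092, chromosome 5, 6719484 to 6784724) had 24.0, 25.8, 29.5, 12.5, 11.7 and 34.9 rescaled TPM in replicates 1 to 6, a mean of 23.1 ± 9.30 (SD, n = 6). Replicates 4 and 5 were the lowest and did not overlap the other 4, and replicate 6 was the highest. Such lows were common, as 41.2% of 12130 genes were lowest in replicate 5 and 25.1% in replicate 4. Replicate 6 was the highest for 19.6% of them. The deposited values were 6.00, 6.22, 7.72, 0.417, 0.552 and 9.20 TPM, with the same libraries at both ends. INSIG1 (ENSSSCG00000016420, chromosome 18, 2885494 to 2898758) had 26.2, 34.7, 16.8, 33.3, 29.0 and 24.6 rescaled TPM, a mean of 27.4 ± 6.51 (SD, n = 6). Its lowest library was replicate 3, where SREBF2 was second highest, and replicates 4 and 5 lay within the range of the others.

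HMGCS1, the cytosolic synthase that makes HMG-CoA for mevalonate (ENSSSCG00000016872, chromosome 16, 27936225 to 27957261), had 26.7, 37.9, 29.4, 44.9, 55.6 and 34.8 rescaled TPM, a mean of 38.2 ± 10.7 (SD, n = 6). Here replicates 4 and 5 were the highest, opposite to SREBF2. IDI1, which interconverts the isoprenoid units downstream of mevalonate (ENSSSCG00000029066), had 106, 99.2, 158, 98.1, 296 and 86.7 rescaled TPM, a mean of 141 ± 80.1 (SD, n = 6). Replicate 5 was 1.88 times the next library, replicate 3, and the other 4 lay close together. Replicate 4, the other library with a low share of named nuclear genes, was at 98.1.

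FDFT1, the squalene synthase that commits isoprenoids to sterols (ENSSSCG00000026044, chromosome 14, 14976259 to 15010701), had 187, 175, 245, 221, 192 and 222 rescaled TPM. It was the most abundant of the 8 and the steadiest, with a coefficient of variation (CV, or SD over mean) of 0.127. SQLE, the squalene epoxidase (ENSSSCG00000005970, chromosome 4, 14669789 to 14700152), had 11.3, 21.1, 14.7, 13.6, 21.3 and 15.9 rescaled TPM, a mean of 16.3 ± 4.07 (SD, n = 6), with replicates 2 and 5 the highest. The enzymes on either side of it were more abundant, as LSS, which closes the sterol ring (ENSSSCG00000021418, on an unplaced scaffold), had 63.7, 51.3, 73.8, 69.4, 157 and 53.1 rescaled TPM, a mean of 78.1 ± 39.8 (SD, n = 6). Replicate 5 again stood alone at the top for LSS, and the other 5 libraries lay between 51.3 and 73.8. DHCR7, which carries out the last reduction to cholesterol in one branch of the pathway (ENSSSCG00000021181, chromosome 2, 2377352 to 2391846), had 11.09, 12.4, 10.7, 4.48, 9.12 and 6.55 rescaled TPM, with replicates 4 and 6 the lowest.

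The order of the levels was FDFT1, IDI1, LSS, HMGCS1, INSIG1, SREBF2, SQLE and DHCR7. Ratios within a library do not depend on how the library is scaled, and the 7 pairs of neighbours in this order were compared on them by an exact two-sided sign-flip test over the 6 libraries, of which the smallest possible p is 0.03125. The order was set by the same values, so these p-values describe how steady it was. IDI1 was above LSS in 6 of 6 libraries, by 1.41 to 2.13 times (mean log2 ratio 0.82 ± 0.21, SD, n = 6, exact p = 0.03125). LSS was above HMGCS1 by 1.35 to 2.83 times, HMGCS1 above INSIG1 by 1.02 to 1.92 times and SQLE above DHCR7 by 1.02 to 3.04 times, each in 6 of 6 libraries with the same exact p of 0.03125. The remaining 3 pairs of neighbours did not differ beyond their spread. FDFT1 was above IDI1 in 5 of 6 libraries (exact p = 0.0625), with replicate 5 the exception, INSIG1 was above SREBF2 in 4 of 6 (exact p = 0.406), and SREBF2 was above SQLE in 4 of 6 (exact p = 0.188). LSS held the third place and DHCR7 the last in every library.

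Steps of the pathway and paralogs were then compared as 7 chosen ratios, 5 of which had the same order in every pig. FDFT1 exceeded SQLE by 8.29 to 16.6 times (mean log2 ratio 3.69 ± 0.46, SD, n = 6, exact p = 0.03125), and LSS exceeded SQLE by 2.43 to 7.39 times (exact p = 0.03125), so the transcript of the epoxidase was the lowest of these 3 consecutive steps. LSS exceeded DHCR7 in 6 of 6 libraries, with a mean log2 ratio of 3.07. HMGCS1 was below IDI1 in every library, with a mean log2 ratio of -1.77.

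Both regulators were also set against a paralog. INSIG1 was below INSIG2, the paralog with the same retention function, in 6 of 6 libraries (mean log2 ratio -0.47 ± 0.36, SD, n = 6, exact p = 0.03125), although the ratio was 0.993 in replicate 2. SREBF2 was below SREBF1, whose product acts mainly on fatty acid synthesis, in 5 of 6 libraries (mean log2 ratio -1.07 ± 0.81, SD, n = 6, exact p = 0.0625). Replicate 6 was the exception, at 1.15 times, and replicate 1 had the widest gap, at 0.205 times. SREBF1 had 117, 41.5, 71.9, 27.8, 27.4 and 30.4 rescaled TPM, with replicates 1 and 3 the highest.

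**Figure D2:**
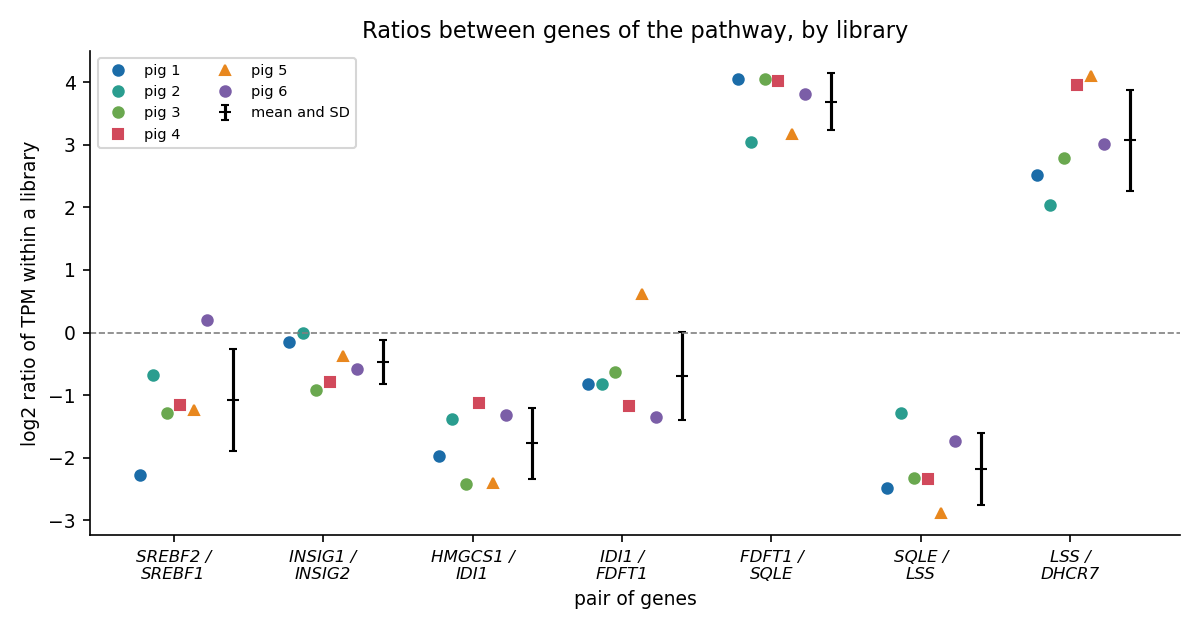
Log2 ratio of TPM within each library for 7 pairs of genes, with a point for each replicate (pig 1 to 6) and the mean and SD beside them. Points on one side of the dashed line at 0 have the same order in all libraries, which was the case for 5 pairs and not for SREBF2 against SREBF1 and IDI1 against FDFT1.

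The rest of the pathway was read from chosen lists. Of 14 other enzymes, 13 had a value, with means from 1.74 rescaled TPM upward. CYP51A1, the sterol demethylase, was the highest at 85.9 rescaled TPM, below FDFT1 and IDI1. Of 13 regulators and handling genes, 12 had a value, and the highest was MYLIP, a ubiquitin ligase that acts on lipoprotein receptors, at 164 rescaled TPM. Of the 4 genes of efflux and oxysterol sensing, ABCA1, the cholesterol exporter, was the highest at 122 rescaled TPM.

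The spread between pigs was set beside that of all genes. The 8 genes had a median CV of 0.306 on rescaled TPM, from 0.127 for FDFT1 to 0.570 for IDI1 (0.254 without replicate 5), and the median over 8866 named nuclear genes with a mean of at least 10 was 0.282, with quartiles of 0.185 and 0.416. Of the 8 genes, 4 lay above that median, among them LSS at 0.510, which was 0.159 without replicate 5. Without replicates 4 and 5 the median CV of the 8 genes was 0.211, and on deposited TPM it was 0.632.

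Replicate 5 held the highest level of 4 of the 8 genes, HMGCS1, IDI1, SQLE and LSS, against 11.6% of 12130 genes tested. After median-centring it was the highest for 5 of 8, against 23.0% of all genes. On the deposited scale it was the highest for 0 of 8, against only 0.0989% of all genes, so this count depends on the scaling. Relative to the median of all genes in the same library, the median deviation of the 8 genes was -0.17, -0.05, 0.16, 0.31, 0.62 and -0.22 on the log2 scale in replicates 1 to 6. In replicate 5 this relative value was 0.71 as deposited, 0.65 after median-centring and 0.65 after quantile normalization. IDI1 and LSS contributed most, at 1.88 and 1.59, and SREBF2 was the only one of the 8 below 0, at -0.67.

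The other enzymes of the pathway and the genes of fatty acid synthesis were also high in replicate 5. Of 13 other enzymes, 6 had their highest rescaled TPM there, and their median relative deviation was 0.63. Of 8 genes of fatty acid synthesis, all 8 had their highest rescaled TPM in replicate 5, with a median relative deviation of 1.33, and 7 of 8 had their lowest in replicate 6, against 4.9% of all genes, where the median was -1.10. On deposited TPM, 0 of 13 other enzymes and 0 of 8 lipogenic genes were highest in replicate 5, against 0.0989% of all genes. On that scale 1 of 8 lipogenic genes was lowest in replicate 6, against 0.289% of all genes, and the relative median there was -0.49. SCD, the stearoyl-CoA desaturase, had 18716 rescaled TPM in replicate 5 and 900 in replicate 6. THRSP, a regulator of lipogenesis, had 170 rescaled TPM in replicate 6, 294 to 709 in replicates 1 to 4 and 3089 in replicate 5. The median relative deviation of the 8 sterol genes on rescaled TPM was also lowest in replicate 6, but at -0.22. Of these 8, 1 was at its lowest there on that scale, IDI1, against 4.9% of all genes. After quantile normalization it was 2 of 8, IDI1 and DHCR7, against 10.6%.

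Markers of liver cells moved in part with these libraries. The 4 of 5 hepatocyte markers with a value summed to 111, 840, 347, 813, 1126 and 60.1 rescaled TPM in replicates 1 to 6. ALB was the largest part in each, at 85.7, 794, 326, 772, 1091 and 47.6. The defining marker CYP7A1 did not follow this sum, as it was highest in replicate 1, at 13.6 rescaled TPM, and lowest in replicate 4, at 2.25. The sums were highest in replicates 2, 4 and 5. IDI1 and LSS were highest in replicate 5 and next highest in replicate 3. Macrophage markers summed to 498, 432, 526, 351, 204 and 571 rescaled TPM, lowest in replicates 4 and 5 and highest in replicate 6, the same libraries as for SREBF2. Endothelial markers summed to 605 and 736 in replicates 4 and 5 and to 1034 to 1322 in the others, with PECAM1 the largest part. TEK was an exception, at 62.2 in replicate 5 and lowest, at 46.1, in replicate 3. The endothelial sum was thus also low where SREBF2 was low. Many genes shared this, as 25.1% of 12130 genes were lowest in replicate 4 and 41.2% in replicate 5. The other sums were 9553 to 28151 for fibroblasts and matrix, 0.69 to 8.19 for skeletal muscle, 7.90 to 23.0 for mammary epithelium (LALBA at 0 in all libraries) and 0.52 to 1.81 for keratinocytes and skin glands (KRT79 at 0). Their part in the levels of the sterol genes was not tested.

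**Figure D3:**
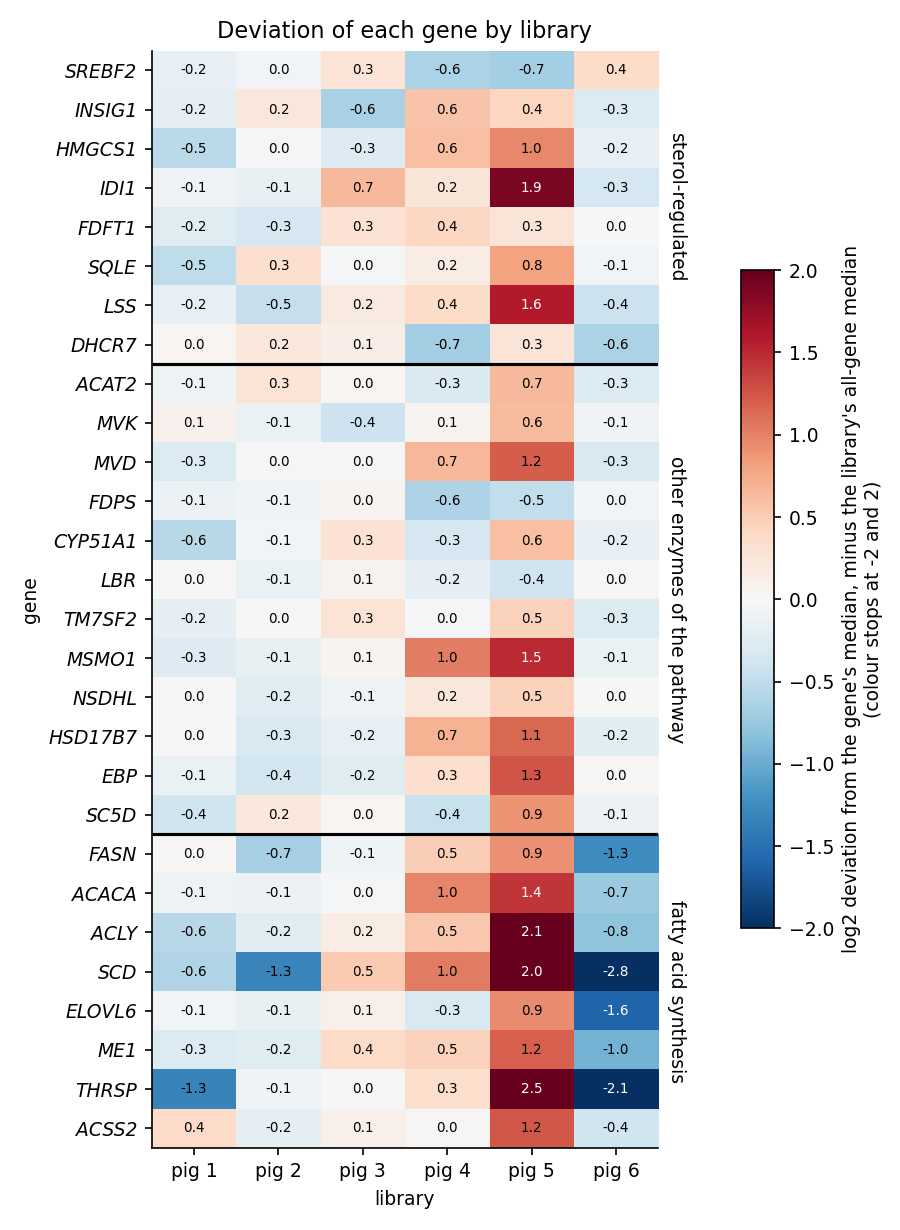
Log2 deviation of each gene from its own median over the 6 libraries (pig 1 to 6), after subtraction of the median deviation of all genes in that library, on rescaled TPM. The column of replicate 5 is positive for 7 of the 8 sterol-regulated genes in the top block and for all 8 genes of fatty acid synthesis in the bottom block, while the column of replicate 6 is negative in the bottom block.

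Co-variation between the 8 genes was measured by Pearson's r of log2(rescaled TPM + 1) over the 6 libraries, with exact permutation p-values over the 720 pairings. The 28 pairs had a median r of -0.034, from -0.785 to 0.951, with 12 above 0 and 16 below, and the median r of the 8 genes with all other genes was -0.146. The scaling changed this picture. After median-centring the median r was 0.365 with 18 of 28 pairs above 0, against -0.099 with all genes, and after quantile normalization it was 0.381 with 20 of 28 above 0, against 0.021. On deposited TPM all 28 pairs were positive, with a median r of 0.926, but so were pairs with genes at large, at 0.943. The number of pairs with an unadjusted exact p under 0.05 was 1 of 28 on rescaled TPM. On that scale the share of all genes that passed in 1 direction ran from 0.8% with SQLE to 27.8% with SREBF2. The shares that follow are in either direction, so they are not on the same footing. The number of pairs was 4 of 28 after median-centring, where 18.0% of the pairs of these 8 genes with all genes passed. After quantile normalization it was also 4 of 28, where 15.4% did. On deposited TPM it was 26 of 28, where r with genes at large was high too. Single pairs are therefore given on several scales.

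The pair of highest r on rescaled TPM was IDI1 and LSS, with r = 0.951 (exact p = 0.0111) and Spearman's rho = 0.714 (exact p = 0.136) over 6 libraries. It was the only pair with an unadjusted exact p under 0.05 on this scale, a mark that 1.34% of 12129 genes reached in the positive direction with IDI1 and 3.36% with LSS. After Benjamini-Hochberg adjustment over all genes with IDI1 as the reference, the exact p was 0.537. The r was 0.968 after median-centring, 0.962 after quantile normalization and 0.898 without replicates 4 and 5. Leaving out the 2 libraries farthest from the median of IDI1 gave r = 0.476, so the high r rested on those libraries.

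SREBF2 had negative r with several of the enzymes once libraries were put on a common scale. Its r was -0.785 with HMGCS1 (exact p = 0.0694), -0.718 with LSS (exact p = 0.0736), -0.528 with IDI1 and -0.185 with SQLE on rescaled TPM, none of which passed the test. These 4 were negative after median-centring too (-0.790, -0.714, -0.578 and -0.527) and after quantile normalization (-0.687, -0.624, -0.490 and -0.480), and all were positive on deposited TPM. With FDFT1 and DHCR7 the sign depended on the scaling. Among all genes, 27.8% had an unadjusted exact p under 0.05 with SREBF2 in the positive direction and 4.51% in the negative, and 0 of the other 7 sterol genes were among them on this scale. Replicates 4 and 5, where SREBF2 was low, bore on these values: without them r with HMGCS1 was 0.360, with SQLE 0.198, with LSS -0.152 and with IDI1 -0.151.

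HMGCS1 and SQLE had r = 0.664 (exact p = 0.151) on rescaled TPM, 0.865 after median-centring (exact p = 0.0181), 0.913 after quantile normalization (exact p = 0.00556) and 0.944 without replicates 4 and 5. Leaving out the 2 libraries farthest from the median of HMGCS1 gave -0.043. INSIG1, itself a target of SREBP-2, had r = 0.560 with HMGCS1 (exact p = 0.254), 0.806 after median-centring (exact p = 0.0611) and 0.837 after quantile normalization (exact p = 0.0431). Its r with SREBF2 was negative on these scales, at -0.516 (exact p = 0.308), -0.884 (exact p = 0.0333) and -0.871 (exact p = 0.0361), so the unadjusted call changed with the scaling.

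Without replicates 4 and 5, 11 of 28 pairs changed sign on rescaled TPM, the median r was -0.152, and 13 pairs were above 0. With each of the 8 genes as the reference, 0 genes passed an adjusted p of 0.05, and the share of genes at an unadjusted exact p under 0.05 in 1 direction ran from 0.8% to 27.8%. The smallest adjusted value was 0.150, with SREBF2, where the smallest unadjusted exact p that 6 libraries allow is 0.00139.

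**Figure D4:**
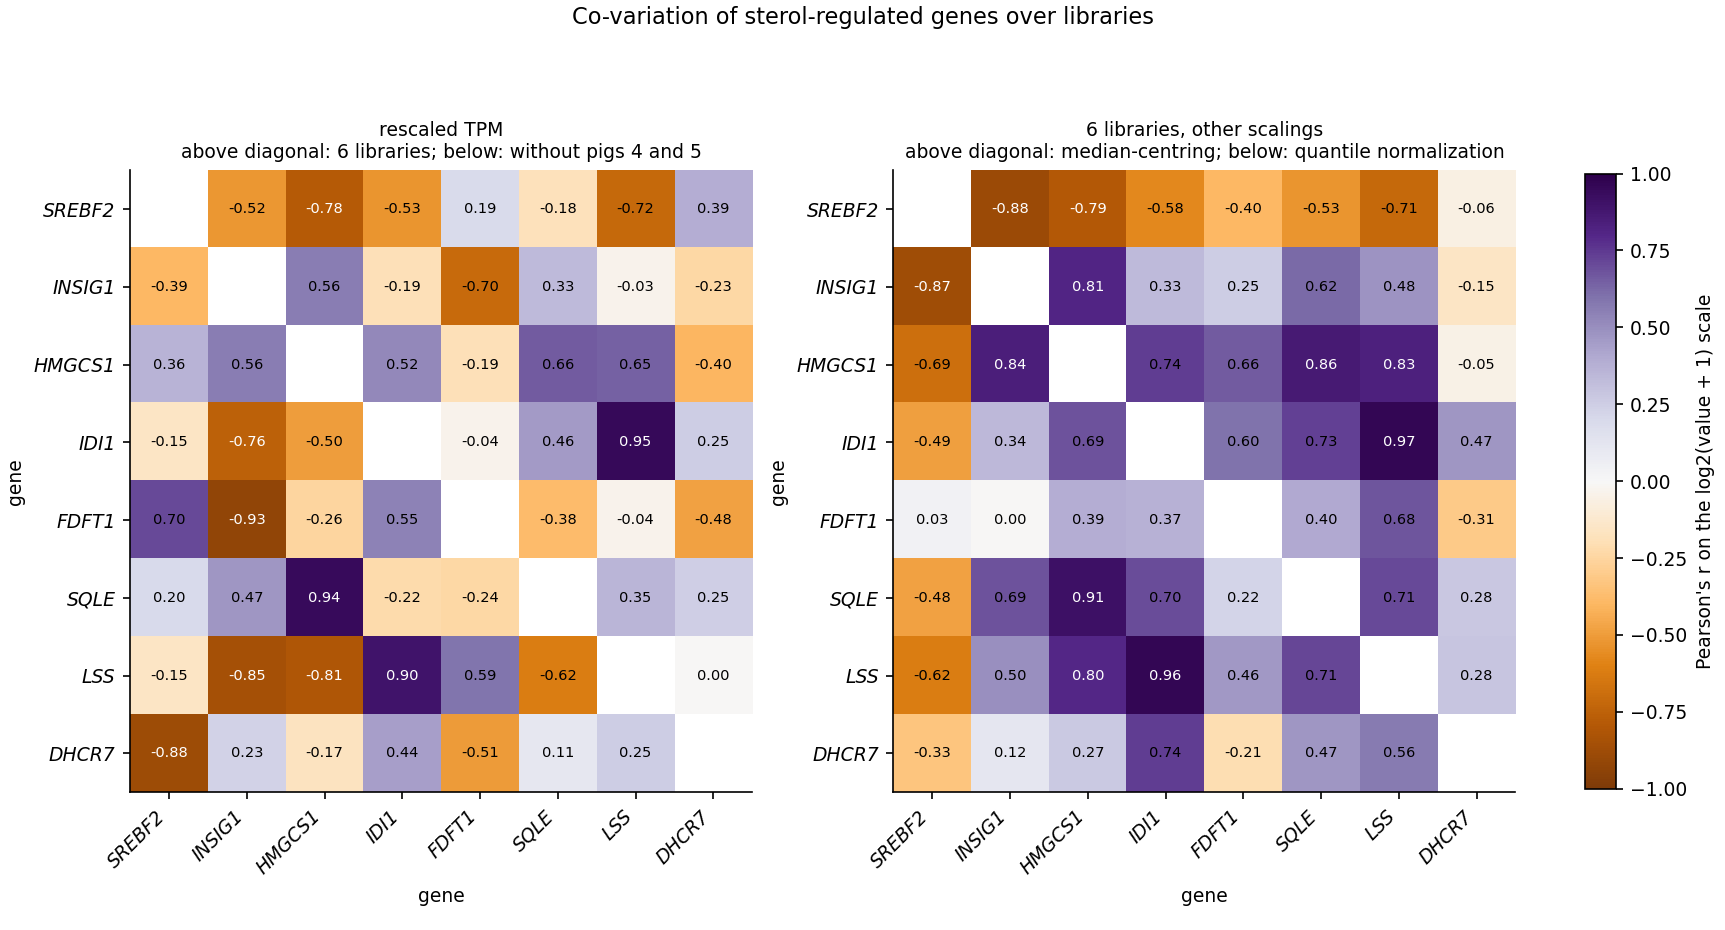
Pearson's r between each pair of the 8 genes on the log2(value + 1) scale: on the left on rescaled TPM over 6 libraries (above the diagonal) and without replicates 4 and 5 (below it), on the right over 6 libraries after median-centring (above) and quantile normalization (below). IDI1 with LSS is 0.898 or more in all 4, while SREBF2 with HMGCS1 is negative in 3 and 0.360 without replicates 4 and 5.

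The r of the sterol genes with the genes of fatty acid synthesis was also measured. All 8 lipogenic genes were highest in replicate 5, as were HMGCS1, IDI1, SQLE and LSS, so a positive r of these 4 with them is favoured by that library. IDI1 had r above 0 with all 8 lipogenic genes on rescaled TPM (median 0.782, and 0.648 without replicates 4 and 5), and LSS likewise (median 0.812, and 0.542). Their medians with all genes were -0.434 and -0.558. SREBF2 had r below 0 with all 8 (median -0.774, and -0.668 without replicates 4 and 5), where its median with all genes was 0.657. After median-centring the medians with the lipogenic genes were 0.876 for IDI1, 0.898 for LSS and -0.742 for SREBF2, and after quantile normalization 0.816, 0.836 and -0.677. HMGCS1 had a median r of 0.494 with them that became -0.421 without replicates 4 and 5, and SQLE had 0.270, with 7 of 8 above 0, that became -0.121. FDFT1 had a median of -0.181 on rescaled TPM and 0.620 after median-centring. DHCR7 had a median of 0.069 on rescaled TPM that became 0.755 without replicates 4 and 5, and INSIG1 had 0.055 that became -0.164. After median-centring the medians for HMGCS1, SQLE, DHCR7 and INSIG1 were 0.730, 0.602, 0.365 and 0.512. After quantile normalization they were 0.602, 0.543, 0.687 and 0.438, so these values changed with the scaling. These r share the same 6 libraries and are given as a description.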

How the data were processed

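RNA-seq libraries of white adipose tissue were rRNA-depleted and stranded. The authors quantified genes with Kallisto 0.43.0 and deposited TPM, which sum to 1000000 per library and keep no read counts, so depth is unknown and no counting error can be given. The files do not name the annotation release. The 8 genes and all lists were chosen with earlier results of these data known. Symbols came from a table of gene IDs, which named 14857 of 25880 IDs, of which 14844 were nuclear, and columns were assigned by library name. TPM were divided by the sum over named nuclear genes. Named in the text were the 8 genes in all libraries and, from each other list, at most 4 genes: the highest mean, the largest CV and those of the chosen ratios. The 5 genes most like the mean profile of the 8 and the 5 most like SREBF2 were also named, among genes with a mean of at least 10 rescaled TPM. A few of the genes this rule names are not reported here.

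Deviations were log2(rescaled TPM + 1) less the gene's median over the 6 libraries, for named nuclear genes with a mean of at least 1 rescaled TPM. On the other scalings the cut-off of 1 was applied to the mean on that scale. The gene sets therefore differed, with 10189 genes as deposited and 12130 on rescaled TPM. Ratios were tested by an exact two-sided sign-flip test over 64 sign patterns, and correlations by exact permutation over 720 pairings with Benjamini-Hochberg adjustment over all genes. The labels call the libraries replicates of 1 group, and p-values measure only the spread between them. The tests were tried on simulated data. Positions and sequences are 1-based Sscrofa11.1 coordinates from RefSeq, matched by symbol, and 7 of the 8 genes matched. The start was the most upstream RefSeq transcript start. Alternatives were other scalings, pseudocounts and filters, Spearman's rho, and leaving out libraries. Python 3.11.15, numpy 2.4.6 and pandas 2.3.3 were used. The rat table was not analysed here because its IDs carry no names.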

Additional observations from a re-analysis of the deposited data

Results flagged for a closer look

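Of 92 sets of 6 pig values, over 46 genes on both scales, 8 had 1 library far from the other 5. Chance marks about 1 set in 20 if sets are independent, whereas these share the same 6 libraries. All 8 were on rescaled TPM. Replicate 5 was far above the rest for IDI1 (296 rescaled TPM, next 158), LSS (157, next 73.8), EBP (28.3, next 16.3), ACLY (618, next 216) and THRSP (3089, next 709). EBP encodes the sterol isomerase and ACLY the enzyme that supplies cytosolic acetyl-CoA. In replicate 4, INSIG2 was far above the rest at 57.4 rescaled TPM (next 37.6), and NR1H3, the oxysterol receptor LXR alpha, was far below them at 35.3 rescaled TPM (next 62.6). In replicate 1, ABCA1 was far above the rest at 209 rescaled TPM (next 121). On deposited TPM none of these 8 sets was marked, but replicates 4 and 5 were mostly both low there. That leaves little room for 1 library to stand alone, so the deposited sets add little to the count.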

How the results depend on the processing

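The median CV of the 8 genes, 0.306 on rescaled TPM, was 0.632 as deposited and 0.670 once mitochondrially encoded and ribosomal protein genes were taken out, scales on which replicates 4 and 5 stay low. The median r of their 28 pairs, -0.034, was 0.365 after median-centring, 0.381 after quantile normalization and -0.152 without replicates 4 and 5, and from -0.172 to -0.00011 when each library was left out, lowest without replicate 5. The cause was not tested. The number of the 8 genes highest in replicate 5, 4 on rescaled TPM, was 0 as deposited, 5 after median-centring or quantile normalization and 4 without replicate 4, checks added after seeing the data. As deposited, only 0.0989% of all genes were highest there. The mean levels of all 8 genes moved by more than 1 SD as deposited and after the same removal. Rescaling multiplied each library by 3.80 to 29.9, and the removal kept unnamed IDs in the total. Both moves therefore follow from the change of total. By the same mark 0 of 8 moved after median-centring, quantile normalization or without replicates 4 and 5, and 0 of 48 when each library was left out. Of 7 neighbouring pairs 4 kept 1 order, 5 without replicate 5 and 6 without replicates 4 and 5. Within-library ratios do not depend on a factor per library. No paired analysis was possible because no test compared pig with rat, whose shared replicate numbers pair no animals. Depth is unknown, and DHCR7, SREBF2 and SQLE had only 0.150, 0.417 and 0.455 TPM in replicate 4.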

Other observations

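The genes whose profile over the 6 libraries was most like the mean profile of the 8 sterol-regulated genes, among 8859 genes, were GPC5 (r = 0.988, and 0.959 without replicates 4 and 5), ILRUN (0.967 and 0.896), ERP29 (0.951 and 0.935), EGFLAM (0.942 and 0.541) and REEP5 (0.939 and 0.652). GPC5, a glypican of the cell surface, had 13.1, 17.1, 16.7, 11.0, 27.3 and 14.9 rescaled TPM in replicates 1 to 6, with replicate 5 the highest. The genes most like SREBF2 were GTF2F1 (0.997 and 0.969), TTC7B (0.995 and 0.969), CCL14 (0.995 and 0.997) and NVL (0.995 and 0.987). CCL14, a chemokine, had 193, 221, 309, 43.8, 25.1 and 513 rescaled TPM, with replicates 4 and 5 the lowest and replicate 6 the highest, as for SREBF2. These values of r are the highest among all those genes over 6 libraries and are given as a description.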
